A study of Rattus norvegicus with 6 samples.

Results

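The genes described here encode the extracellular matrix of the dorsal root ganglion (DRG) and the receptors that bind it. They were taken as the annotated CpG cytosines whose nearest transcript maps to a rat symbol beginning with Col, Lama, Lamb, Lamc, Itga, Itgb, Mmp, Timp or Adamts followed by a digit, or with Adamtsl. This gave 205 of the 32674 annotated sites and 50 of the 7520 genes with a symbol. The collagens gave 80 sites in 20 genes, the laminins 28 sites in 4 genes, and the integrin alpha and beta chains 15 sites in 5 genes and 11 sites in 4 genes. The matrix metalloproteinases gave 16 sites in 5 genes, their tissue inhibitors 5 sites in 2 genes, the ADAMTS proteases 40 sites in 8 genes and the ADAMTS-like proteins 4 sites in 1 gene. The symbol Itgb1bp1, with 6 sites, also fits, although it encodes a cytoplasmic protein that binds an integrin tail and no matrix protein or integrin.

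Collagens and laminins are the fibres and sheets around cells. In peripheral nerve and ganglia, laminin lines the basement membrane that Schwann cells and satellite glia lay down, and integrins, pairs of an alpha and a beta chain, bind these proteins and pass signals into the cell. Matrix metalloproteinases and ADAMTS proteases cut the matrix, and tissue inhibitors of metalloproteinases (Timps) hold the cutting in check. Methylation of CpGs around a gene's start often goes with silence of that gene, while CpGs in gene bodies and between genes are mostly methylated in adult tissue.

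The study compared DRG from adult male Sprague-Dawley rats, 8 to 9 weeks old, 3 weeks after spinal nerve ligation (SNL, n = 3 libraries) with DRG 3 weeks after a sham operation (Sham, n = 3 libraries). In SNL, a surgical model of nerve injury pain, ligatures are tied around the spinal nerves L5 and L6 on the left. Sham surgery was done contralaterally, and the labels neither tie libraries to animals nor say whether an SNL and a Sham library can come from 1 rat. P-values here thus rest on read counts and on the scatter of libraries, part of which may be technical. This scatter was drawn toward that of all sites and not allowed below that of read sampling. Reduced representation bisulfite sequencing (RRBS) cuts DNA with MspI at CCGG and reads the fragment ends, and each value is the percent of reads in which a CpG kept its cytosine. Summed coverage ran from 27247702 reads (Sham 3) to 34293779 reads (SNL 2), and the 205 sites had 100 to 1407 reads in each library. A ganglion holds neurons, glia, fibroblasts and immune cells, so a change in the mix of cells and a change of methylation within cells cannot be told apart. No RNA was analysed here, and the tissue label was not checked against marker expression.

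The start regions of 3 members named in the later results are shown first. Lamc1 holds the 1 member site with an adjusted p under 0.05. Col26a1 has the site with the largest difference, and Col8a1 has the promoter-flagged site with the highest methylation. Each sequence is the 250 bases before the transcript start from RefSeq on GRCr8, read 5′ to 3′ along the gene, with each CG in capitals. Whether these starts equal those of the deposited rn4 coordinates is not known.
Lamc1, chr13:68051987-68052236, minus strand: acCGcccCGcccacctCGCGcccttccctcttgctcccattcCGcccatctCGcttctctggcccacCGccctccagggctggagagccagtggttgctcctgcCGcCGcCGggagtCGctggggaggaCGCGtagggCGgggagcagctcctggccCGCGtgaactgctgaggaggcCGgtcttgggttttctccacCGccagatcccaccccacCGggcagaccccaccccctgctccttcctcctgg
Col8a1, chr11:56246532-56246781, plus strand: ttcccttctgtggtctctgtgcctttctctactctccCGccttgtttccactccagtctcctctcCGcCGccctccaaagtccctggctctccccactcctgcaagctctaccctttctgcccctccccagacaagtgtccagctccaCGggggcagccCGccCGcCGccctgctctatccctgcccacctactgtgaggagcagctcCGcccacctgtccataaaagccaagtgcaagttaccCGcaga
Col26a1, chr12:25429146-25429395, plus strand: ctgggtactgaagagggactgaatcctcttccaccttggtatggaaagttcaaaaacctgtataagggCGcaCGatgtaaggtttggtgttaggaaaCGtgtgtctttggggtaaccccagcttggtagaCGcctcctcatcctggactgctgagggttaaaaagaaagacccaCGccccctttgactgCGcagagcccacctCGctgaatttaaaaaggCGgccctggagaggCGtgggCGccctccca
The Lamc1 stretch holds 19 CG and 3 CCGG with 71.2% G and C, and 19.8% of the 27457 promoters in the RefSeq table have as many CG or more in a window of this length. The Col8a1 stretch holds 9 CG and the Col26a1 stretch 10, and neither holds CCGG. Of all these promoters 92.5% held CG and 47.6% held CCGG, with a median of 6 CG. Of the 50 genes 33 were in the table, and 17 of these (51.5%) held CCGG, with a median of 12 CG. CG and CCGG are palindromes and read the same on both strands, and each CCGG contains a CG.

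CpGs within 1000 bp of a start were read with at least 20 reads in all 6 libraries for 12 of the 50 genes, at 34 CpGs. None of them was called at an adjusted p under 0.05 over the 210270 sites tested at this depth, of which 0.568% were called. The lowest adjusted p was 0.256, and 3 of the 34 had an unadjusted p under 0.05. Summed over its CpGs, the start was under 10% methylated in Sham for 10 of the 12 genes, among them Itga7, a laminin receptor chain (2.6% ± 0.5), Mmp16, a membrane-bound protease (3.5% ± 0.9), and the aggrecan-cutting protease Adamts5 (1.7% ± 1.1; all SD, n = 3).

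The exceptions were Col8a1 and Col26a1. Col8a1, a short-chain collagen of vessel walls and basement membranes, had 22.3, 25.1 and 27.7% in SNL 1 to 3 and 22.5, 26.2 and 19.7% in Sham 1 to 3 over 3 CpGs. The groups overlapped. Its site at chromosome 11, position 43605322 (0.3 kb after the start), read 33.0, 31.5 and 37.8% in SNL and 23.0, 34.3 and 26.2% in Sham with 109 to 149 reads. The means were 34.1% ± 3.3 and 27.8% ± 5.8 (SD, n = 3), and this difference of 6.3 points, with Sham 2 above 2 of the SNL libraries, was not called (adjusted p = 0.57). Col26a1, a collagen-like protein, was 94.7% ± 6.0 in SNL and 90.1% ± 5.4 in Sham (SD, n = 3) at 1 CpG 20 bp after the start, where the lowest coverage was 25 reads. The Lamc1 start was 3.2% ± 1.5 in SNL and 1.8% ± 0.8 in Sham (SD, n = 3), at 3 CpGs 831 to 996 bp after the start. By their distances from the rn4 starts, these CpGs of the 3 genes lie after the start, while the stretches printed above lie before the GRCr8 start.

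**Figure D1:**
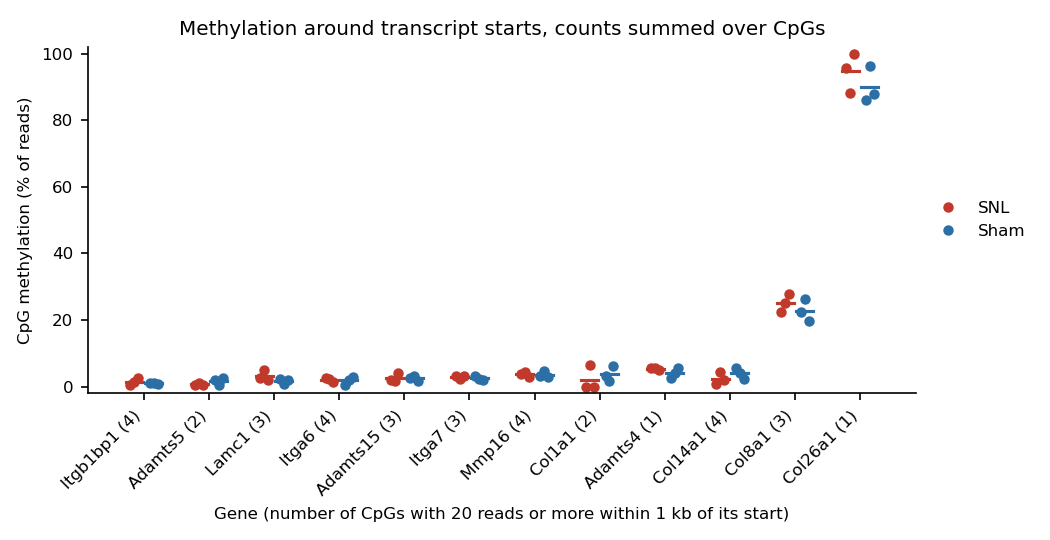
Methylation (percent of reads) around the transcript starts of the 12 genes with measured CpGs within 1 kb; points are libraries, short lines are means of 3, and numbers in brackets are CpGs summed. In Sham 10 genes lie under 10%, Col8a1 averages 22.8% and Col26a1 90.1%.

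Fewer members than annotated sites as a whole lay close to a start, while the median distance was alike. Within 10 kb of a start lay 11.2% of the 205 sites against 23.2% of all sites, and 2.44% (5 sites) carried the promoter flag against 7.31%. Introns held 33.2% (24.7% of all), exons 6.34% (3.77%) and intergenic DNA 58.0% (64.2%). The nearest start lay a median of 45.8 kb away (45 kb for all sites), with 68 sites (33.2%, against 32.6%) beyond 100 kb, so a gene name here means the nearest annotated start and not a shown target. Positions within 50 bp of each other formed 129 clusters, and sites in a cluster can share reads.

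Sham methylation was under 20% at 24 sites (11.7%, against 15.6% of all annotated sites), 20 to 80% at 68 (33.2%, 29.8%) and over 80% at 113 (55.1%, 54.6%). The median site of the integrin beta chains was at 92.1%, of the integrin alpha chains at 87.8% and of the collagens at 86.9%. The laminins had the lowest median of the families with more than 1 gene (66.8%), with the ADAMTS proteases at 77.3%, the metalloproteinases at 78.9% and the Timps at 81.6%.

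The 24 sites under 20% came from 12 genes. Of these sites 10 lay within 5 kb of a start, among them 3 promoter-flagged sites of Itga7 (1.1 to 4.2%) and the promoter-flagged site of the aggrecanase Adamts4 (4.0% ± 1.6, SD, n = 3). The other 14 lay more than 10 kb from the start they were assigned to. Adamts19 had 5 of them, clustered 48.2 to 48.4 kb before its start at 13.7 to 19.7%, and Col1a1, the main fibrillar collagen of scar and tendon, had 2 at 57.2 kb before its start (15.4 and 14.8%). The collagen receptor chain Itga10 had 2 exonic sites at 1.1 and 3.7%, 18.1 kb after its start. Of the 24 low sites, 1 (the Lamc1 site at 68345237) had an unadjusted p under 0.05.

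**Figure D2:**
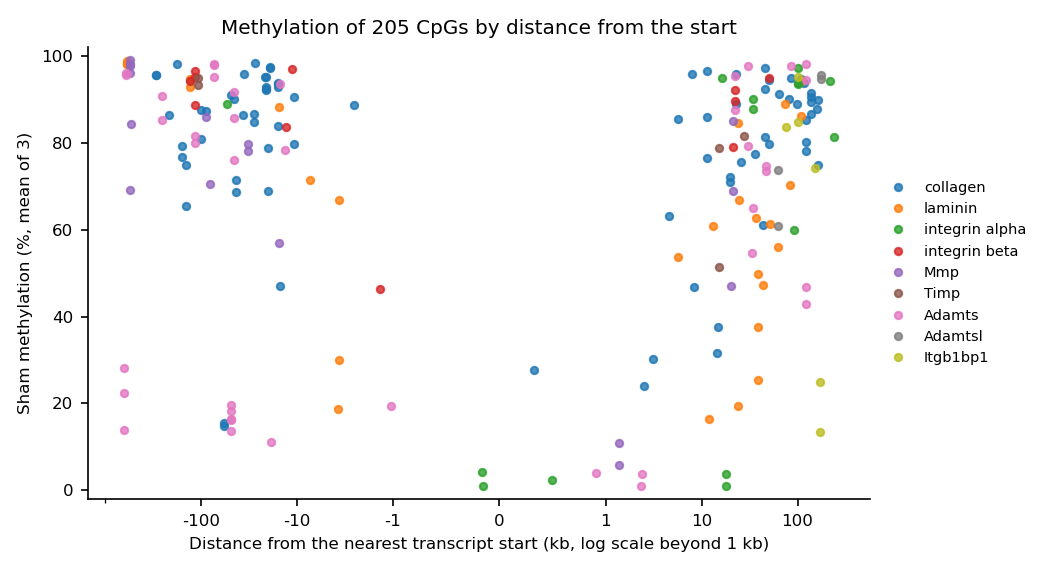
Sham methylation (mean of 3 libraries, percent) of the 205 sites against distance from the nearest transcript start (kb, negative upstream, log scale beyond 1 kb), coloured by family. Low values lie close to starts, and a further 14 sites under 20% lie more than 10 kb away.

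Over the 205 sites mean methylation was 72.53, 71.44 and 70.67% in SNL 1 to 3 and 71.28, 72.1 and 72.66% in Sham 1 to 3. The groups overlapped, and the means were 71.55% ± 0.93 and 72.01% ± 0.69 (SD, n = 3), 0.47 points lower in SNL. Over all annotated sites the same means were 67.32% ± 0.79 and 68.24% ± 0.43 (SD, n = 3), 0.92 points lower. The 119 intergenic members averaged 75.46% ± 0.9 and 76.18% ± 0.68, and the 68 intronic members 70.85% ± 1.14 and 71.15% ± 0.73 (SD, n = 3).

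At an adjusted p under 0.05, 1 of the 205 sites was called, in Lamc1, against 1.42% of all annotated sites (464, of which 405 were lower and 59 higher after SNL); lower calls made up 1.24% and higher calls 0.181% of the table. An unadjusted p under 0.05 was found at 18 sites (8.78%, 14 lower and 4 higher) against 13.1% of all sites (10.3% lower, 2.88% higher). The 2 groups of libraries did not overlap at 34 sites (16.6%, 24 lower and 10 higher), against 17.8% (13.2% lower, 4.64% higher). Methylation was lower in SNL at 56.1% of the sites against 61.3%, and the median difference was -0.5 points against -0.55. These shares are close to or under those of the whole table. In the authors' deposited table, by their q-value, 7 of the 205 sites had values under 0.05 (3.41%) against 4.54% of all.

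With counts summed over the sites of each gene, 0 of the 50 genes were called by the same test, against 0.536% of 8016 genes. A sum weights each site by its reads. It can therefore also shift with how reads are split among sites of different level, and it is not the mean of the site differences. An unadjusted p under 0.05 was found for 6 of the 50 (12.0%, 4 lower and 2 higher) against 13.7% (11.8% lower, 1.91% higher). The groups of libraries did not overlap in 7 of the 50 sums (14.0%, 4 lower and 3 higher), against 19.5% of all genes (15.8% lower, 3.69% higher). Summed methylation was lower in SNL in 28 genes (56.0%, against 66.9% of all genes) and higher in 22, with a median difference of -0.17 points against -0.79 over all genes. The lowest adjusted p was 0.0943, for Col26a1.

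**Figure D3:**
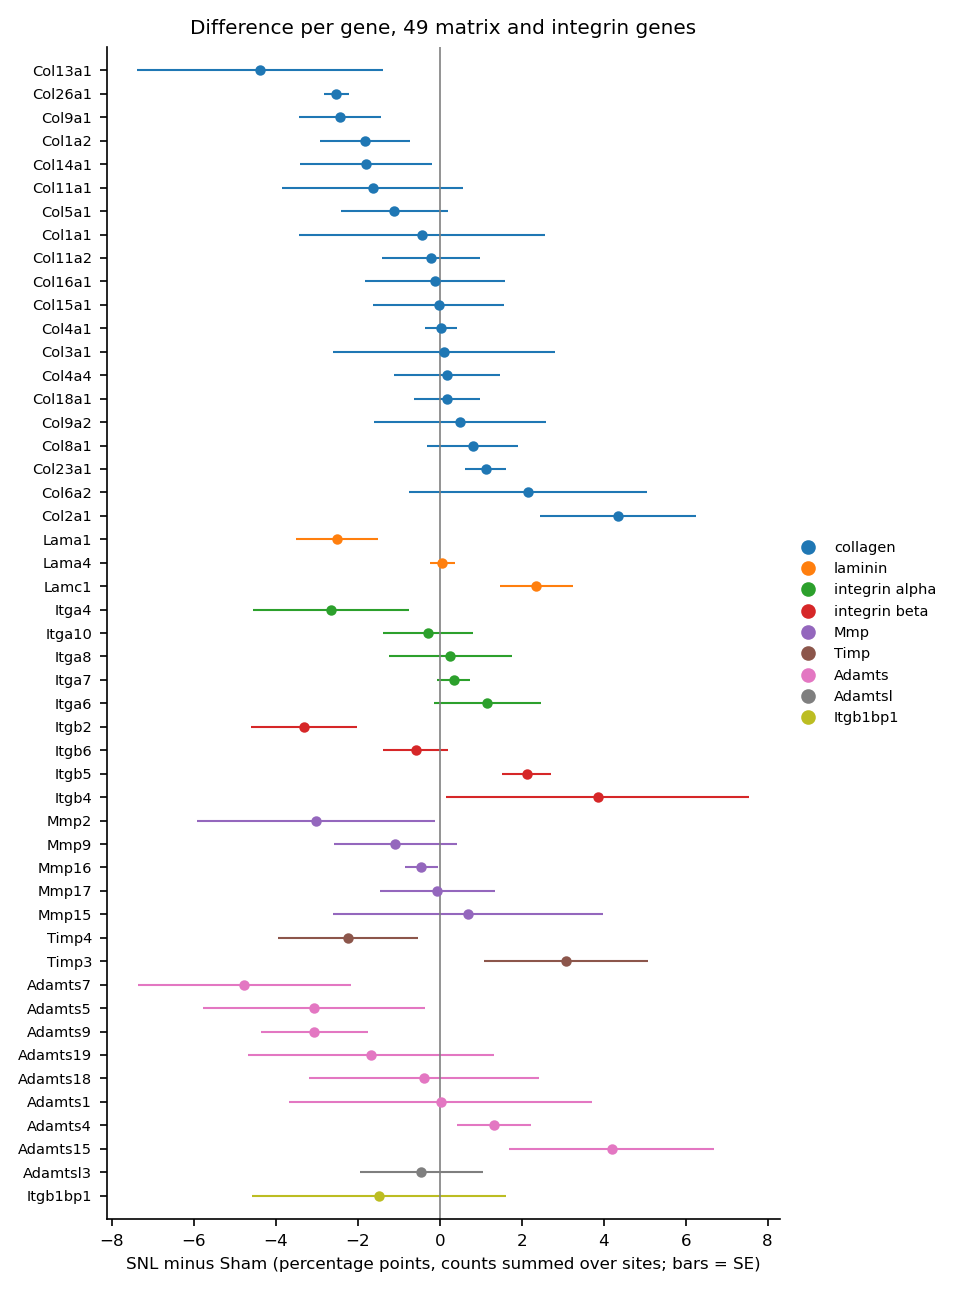
Difference in methylation (SNL minus Sham, percentage points, counts summed over the annotated sites of a gene) for 49 of the 50 genes, coloured by family; bars are standard errors over 3 and 3 libraries. No gene passed the adjusted threshold, and 28 of those drawn lie below 0 and 21 above.

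Among the laminins, the basement membrane proteins, Lamc1 held the only member site called. Lamc1 encodes the gamma 1 chain, present in most laminins, and the site lies in an intron at chromosome 13, position 68345209 (rn4), 24.2 kb after the start. It read 89.9, 90.4 and 91.8% in SNL 1 to 3 and 84.5, 84.8 and 84.1% in Sham 1 to 3 with 501 to 706 reads. Every SNL library lay above every Sham library. Methylation rose from 84.5% ± 0.3 to 90.7% ± 1.0 (SD, n = 3), by 6.2 points ± 0.6 (SE; adjusted p = 0.0144). The call was lost without SNL 3 (adjusted p = 0.0542) and without Sham 3 (adjusted p = 0.0911), and in the tests without moderation or on logit values it did not pass (adjusted p 0.331 to 0.805).

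A pair of CpGs beside it leaned the same way without passing. The CpG at 68345189 read 73.3, 74.2 and 74.8% in SNL and 63.6, 66.7 and 70.2% in Sham, 7.3 points ± 2.0 (SE) higher (adjusted p = 0.0636). The CpG at 68345237 read 25.2, 24.7 and 25.1% in SNL and 19.4, 18.6 and 20.5% in Sham, 5.5 points ± 0.6 (SE) higher (adjusted p = 0.0869). The groups did not overlap at either, but the 3 CpGs span 48 bp and can be read by the same reads, so they are not independent. Their levels differed widely within this span, from 19.5% to 84.5% in Sham. In the authors' deposited table the q-values were 7.8e-06 at 68345209, 0.00522 at 68345189 and 0.00554 at 68345237.

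The next measured CpGs, 95 and 119 bp beyond the called one, were covered by 49 to 84 reads and overlapped between the groups (adjusted p 0.884 and 1.0 at the 20-read depth). A second group of 3 Lamc1 intron sites, 38.5 kb after the start and 14.3 kb from the first, leaned the other way. The site at 68330881 read 37.1, 48.3 and 29.5% in SNL and 49.5, 48.7 and 51.0% in Sham, 11.5 points ± 5.5 (SE) lower in SNL (adjusted p = 0.225). SNL 2 lay just under the lowest Sham library there. Summed over its 9 sites Lamc1 was 56.6% ± 1.5 after SNL and 54.2% ± 0.6 after sham surgery (SD, n = 3; adjusted p = 0.323), with 5 sites lower and 4 higher. The called CpG and the pair beside it had 495 to 706 reads, against 119 to 218 in the second group, so they weigh more in this sum.

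**Figure D4:**
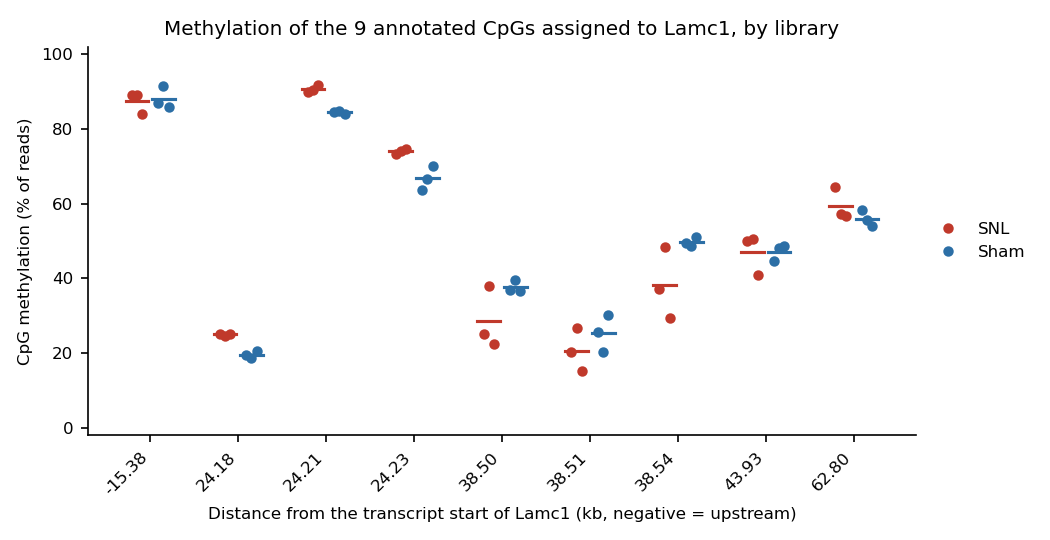
Methylation (percent of reads) of the 9 annotated Lamc1 CpGs by distance from its start (kb, negative upstream); points are libraries and short lines are means of 3. At the 3 sites 24.2 kb after the start all SNL libraries lie above all Sham libraries, and at the 3 sites 38.5 kb after it the SNL means are lower.

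Lama1 and Lama4 were not called. Lama1, the alpha chain of the first laminin described, read 74.1, 73.3 and 73.1% in SNL and 74.1, 77.4 and 76.5% in Sham over 8 sites, a difference of -2.5 points (adjusted p = 0.361). SNL 1 and Sham 1 were both 74.1% as rounded, but unrounded every SNL library lay below every Sham library. Of its sites 4 were lower and 4 higher. Lama4, an alpha chain of vessels and nerve, was 95.5% ± 0.2 and 95.4% ± 0.5 (SD, n = 3). Of the 28 laminin sites 6 (21.4%, against 13.1% of all sites) had an unadjusted p under 0.05. Of these 2 were lower and 4 higher, against 10.3% lower and 2.88% higher over all sites. Most of the 6 are Lamc1 sites of the 2 groups described above, within which sites can share reads, so they are not independent.

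Of the 80 collagen sites 0 were called, and 8 (10%) had an unadjusted p under 0.05, all of them lower in SNL, against 10.3% lower over all annotated sites. The largest differences were in Col26a1, at a pair of intergenic CpGs 161.7 kb after its start on chromosome 12, covered by 114 to 167 reads. The CpG at 21190169 read 64.9, 63.5 and 56.3% in SNL and 79.2, 71.9 and 73.3% in Sham, -13.3 points ± 3.5 (SE; adjusted p = 0.104). The CpG at 21190212 read 83.0, 78.0 and 76.3% in SNL and 93.0, 87.9 and 88.6% in Sham, -10.7 points ± 2.6 (SE; adjusted p = 0.083). The groups did not overlap at either, and the 2 CpGs lie 43 bp apart. Over 6 sites Col26a1 was 88.8% ± 0.4 in SNL and 91.3% ± 0.4 in Sham (SD, n = 3), and no SNL library reached a Sham value.

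Col9a1, a chain of a fibril-associated collagen of cartilage, was lower at 9 of its 10 sites. Its summed values were 85.3, 83.3 and 84.5% in SNL and 85.9, 86.1 and 88.5% in Sham, -2.4 points ± 1.0 (SE; adjusted p = 0.277), and the groups did not overlap. Col8a1 over 7 sites was 89.4% ± 0.5 and 88.6% ± 1.8 (SD, n = 3; adjusted p = 0.844). The fibrillar collagens, 7 genes and 27 sites that include the type I, II, III and V chains, ranged in their gene sums from -1.8 points in Col1a2 to 4.3 in Col2a1, with 5 genes lower and 2 higher and no adjusted p of a gene sum under 0.511. The basement membrane chains Col4a1 and Col4a4 differed by 0.0 and 0.2 points.

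Of the 26 integrin sites 0 were called (1.42% of all annotated sites) and 0 had an unadjusted p under 0.05 (13.1% of all). Itgb5, a partner of the alpha v chain in a vitronectin receptor, was 93.3, 94.1 and 92.8% in SNL and 92.0, 91.2 and 90.6% in Sham over 6 sites, 2.1 points ± 0.6 (SE) higher (adjusted p = 0.277). All 3 SNL libraries lay above Sham, and 5 of its 6 sites were higher. Itgb2, the beta chain of leukocyte integrins, was 81.9, 85.2 and 84.9% in SNL and 87.4, 85.9 and 88.6% in Sham over 3 intronic sites, -3.3 points ± 1.3 (SE; adjusted p = 0.427). All SNL libraries lay below Sham.

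Among the alpha chains, Itga4, which pairs with beta 1 on leukocytes, was 79.3% ± 2.8 and 82.0% ± 1.8 (SD, n = 3; adjusted p = 0.594). The laminin receptor chain Itga6 was 90.0% ± 2.0 and 88.9% ± 0.8, and Itga8 was 92.1% ± 2.5 and 91.8% ± 0.8 (SD, n = 3). The groups overlapped in all 5 alpha chain genes. Itgb1bp1 was 67.3% ± 3.1 and 68.8% ± 4.3 (SD, n = 3) over sites 75.3 to 171.3 kb from its start (adjusted p = 0.896).

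No protease or inhibitor site was called, against 1.42% of all annotated sites. Of the 56 sites of the metalloproteinases and ADAMTS proteases, 3 had an unadjusted p under 0.05, all lower in SNL. They were 2 of the 16 metalloproteinase sites (12.5%) and 1 of the 40 ADAMTS sites (2.5%), against 13.1% of all annotated sites (10.3% lower). Mmp16 had the largest of these, 89.0 kb before its start, with 72.5, 82.3 and 77.4% in SNL and 87.0, 87.0 and 83.9% in Sham (-8.6 points ± 3.0, SE; adjusted p = 0.16). SNL 2, the highest of its group, lay just below the lowest Sham library. Over its 7 sites Mmp16 was 90.3% ± 0.5 and 90.7% ± 0.3 (SD, n = 3). Mmp2, a gelatinase that cuts basement membrane collagen, was 67.3% ± 4.5 and 70.4% ± 2.2 (SD, n = 3) at 1 site 79.9 kb before its start.

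Adamts9, a versican-cutting protease with 16 sites, was 57.0, 60.9 and 57.8% in SNL and 60.9, 61.1 and 62.8% in Sham, -3.1 points ± 1.3 (SE; adjusted p = 0.305), with 10 sites lower. Only SNL 2 reached the lowest Sham library. Adamts7, which cuts the cartilage protein COMP, was 22.1% ± 3.4 and 26.9% ± 2.8 (SD, n = 3, adjusted p = 0.425). It was lower at all 3 sites, with differences of -5.0, -0.1 and -1.7 points. Adamtsl3, which lacks the protease part, was 88.3% ± 2.3 and 88.7% ± 1.3. Timp3, the inhibitor that stays bound to the matrix, was 77.4, 79.4 and 75.2% in SNL and 71.3, 76.3 and 75.2% in Sham over 4 sites, 3.1 points ± 2.0 (SE) higher (adjusted p = 0.462). Timp4 was 79.3% ± 2.0 and 81.6% ± 2.2 (SD, n = 3) at 1 site.

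The 18 sites with an unadjusted p under 0.05 came from 10 genes, and all 18 lay more than 10 kb from a start. They were picked by their values, so they are a description. In Sham 10 of them were over 80% methylated and 7 between 20 and 80%. Beside those above they include Col13a1, a membrane collagen of the neuromuscular junction, whose intronic site read 70.3, 71.8 and 64.4% in SNL and 78.4, 77.2 and 76.7% in Sham. Mmp9, the other gelatinase, read 76.2, 73.8 and 77.6% in SNL and 82.5, 78.2 and 78.6% in Sham 32.2 kb before its start. Apart from the called Lamc1 site, their adjusted p ran from 0.0636 to 0.377.

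**Figure D5:**
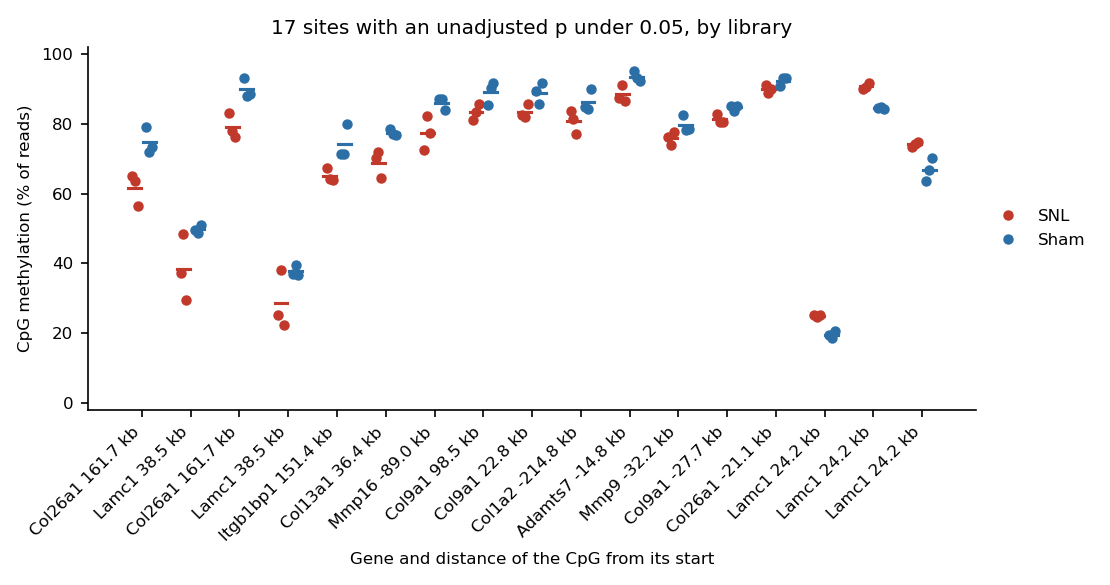
Methylation (percent of reads) of 17 of the 18 sites with an unadjusted p under 0.05, ordered by difference and named by gene and distance from its start; points are libraries and short lines are means of 3. The 14 at the left are lower in SNL, from -13.3 points in Col26a1, and the 3 at the right, in Lamc1, are higher.

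Within 500 bp of the member sites a further 148 CpGs had 20 reads or more in every library. Of these 0 were called, 15 had an unadjusted p under 0.05 (10.1%, against 8.7% of all sites at that depth), and 84 were lower in SNL.

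Related matrix genes outside the naming rule were read from 5 lists with 162 genes, of which 77 were measured at 361 sites. In all 5 sites fell (1.39%, against 1.24% of all annotated sites) and 0 rose (0.181% of all), and 54 (15.0%, against 13.1%) had an unadjusted p under 0.05. Of these 54 sites 49 were lower in SNL. Over the 5 lists together the shares called lower and with an unadjusted p under 0.05 are near those of the whole table, but the lists differed. The lists of proteoglycans and hyaluronan genes (16 genes measured) and of collagen processing and crosslinking (10 genes) held 2 and 3 of the 5. These were 3.64% of 55 sites and 2.8% of 107 sites, above the 1.24% of all annotated sites. An unadjusted p under 0.05 was found at 9 (16.4%, 7 lower) and 20 (18.7%, all 20 lower) of their sites, above 13.1%. The lists of other matrix proteins (23 genes), of receptors and adhesion signalling (16) and of other proteases and inhibitors (12) held 0. They had 14 of 108, 6 of 49 and 5 of 42 sites at an unadjusted p under 0.05, each a share under 13.1%.

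Cd44, the hyaluronan receptor, had the largest of these changes, at an intronic site on chromosome 3, position 88092937, 17.4 kb after its start. It read 60.1, 59.2 and 57.8% in SNL and 73.9, 80.7 and 82.0% in Sham with 122 to 179 reads, and fell by 19.8 points ± 2.6 (SE; adjusted p = 0.00729). The groups were far apart, and every SNL library was lower. Tll1, which encodes a protease of the family that trims procollagen, fell at 3 intergenic sites, by 5.1 points (adjusted p = 0.00624) and 2.9 points (adjusted p = 0.0438) 645.9 kb before its start and by 5.3 points (adjusted p = 0.015) 466.9 kb before it. Over its 74 sites Tll1 fell from 77.5% ± 0.6 to 75.0% ± 0.8 (SD, n = 3; adjusted p = 0.0458), a call kept in 1 of 6 fits that each left out 1 library. With library offsets the Tll1 difference was -1.3 points (adjusted p = 0.39), and its 3 site calls were lost (adjusted p 0.0608 to 0.225). The glypican Gpc5, a cell surface proteoglycan, fell by 6.6 points at 1 intronic site with 1383 to 2030 reads (adjusted p = 0.0171). Leaving out Sham 3 ended the calls at the Cd44 site (adjusted p = 0.0628), at the Gpc5 site (0.0628) and at the 3 Tll1 sites (0.0562 to 0.145). The Gpc5 call was also lost without SNL 2, Sham 1 or Sham 2 (adjusted p 0.053 to 0.092), and a Tll1 site at 466.9 kb without Sham 2 (0.0683). The Tll1 site with the 2.9-point difference was kept in 2 of 6 such fits. The Cd44, Gpc5 and Tll1 site calls were all lost in the unmoderated test (adjusted p = 0.805) and with limma on logit values (adjusted p 0.227 to 0.609).

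Methylation near markers of the cell types in the ganglion was read in the same way. The macrophage and leukocyte list (6 genes measured, 15 sites) had 0 sites called and 0 with an unadjusted p under 0.05, and its summed level was 66.4 to 68.1% over SNL and 67.0 to 68.4% over Sham libraries. The Schwann and satellite glia list (7 genes, 41 sites) had 1 called lower (2.44%), 46.5 kb before the start of Egr2. It had 4 sites with an unadjusted p under 0.05 (9.76%). Its level was 59.2 to 61.4% over SNL and 60.1 to 61.7% over Sham. The sensory neuron list (8 genes, 46 sites) had 1 lower, near Nefl, with 68.9 to 70.3% and 69.9 to 71.2%. The list of fibroblast, perineurial and vascular markers (7 genes, 34 sites) had 1 called lower (2.94%), 6.6 kb before the start of Cldn1. It had 6 with an unadjusted p under 0.05 (17.6%). Its level was 53.9 to 55.5% over SNL and 54.4 to 54.7% over Sham, and its genes Cspg4 and Lum also stand on the matrix lists. Over all annotated sites 1.24% were called lower and 13.1% had an unadjusted p under 0.05. In the unmoderated test and with limma on logit values 0 annotated sites were called, so these calls were lost there. They were not followed when leaving out 1 library. The part of cell mix in the Lamc1 result was not tested.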

How the data were processed

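Methylation was measured by RRBS, as single-end reads of 50 bases, in 6 libraries. The submitters' processing notes name Bismark 0.18.1, Bowtie2, methylKit 1.3.3 and the build rn4, whereas a human assembly stands in the labels' protocol. Each library's file gives, per the file headers, a read count (coverage) with the percent of C and of T. The deposited series table gives percent methylation, the authors' q-value beside a p-value, and the authors' difference, a score in percentage points, for sites with 100 reads or more in all libraries.

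Transcripts were matched to symbols by accession in a RefSeq table of GRCr8 (7627 of 8123). Methylated counts were recovered as coverage times percent, and a logistic regression was fitted per site. Pearson overdispersion (4 residual degrees of freedom) was moderated with limma 3.58.1 (squeezeVar, R 4.3.3) and kept at 1 or above, and two-sided F test p-values were adjusted by Benjamini-Hochberg over all 32674 annotated sites. The same fit was used for 8016 gene sums, which can count a read more than once, and for 210270 sites with 20 reads or more. Errors are SD over libraries or SE of the difference of group means. On simulated data over the 32674 sites this test recovered 30% of changes of 10 points and 97% of changes of 20 points, making 127 true and 23 false calls.

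The members and lists were chosen with earlier results of these data known. Genes named by rule were called members, the 2 of lowest p and the 1 with the most sites in each family, members with a promoter-flagged site at 20% or more in Sham, and the gene that encodes no matrix protein. Values of 1 gene are not reported here, while counts include it. Other genes and sites named were chosen after their values were seen. Alternatives were an unmoderated test, limma on logit values (pseudocount 1 or 0.5), library offsets, a replicate block, 200 reads or more, and leaving out each library.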

Additional observations from a re-analysis of the deposited data

How the results depend on the processing

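The replicate numbers were not taken to pair libraries, since the labels do not say that a number marks an animal. In their deviations from the group mean, same-numbered SNL and Sham libraries correlated at -0.055, 0.256 and -0.135. Libraries of unlike number correlated at -0.293 to 0.341, highest for SNL 3 with Sham 1, and a pairing under other numbers was not tested. With a replicate block 339 annotated sites, 10 genes and 1 member site were called (adjusted p 0.0353 at the Lamc1 site), and 0 member genes. The calls of the Tll1 sum (adjusted p 0.0823) and of its site at 27787196 (0.0533) were lost with this block. Of all annotated sites 464 were called as reported, 0 with the unmoderated F test (1968 at an unadjusted p under 0.05), 0 and 0 with limma on logit values (pseudocount 1 and 0.5; 3480 and 3437 unadjusted), 424 with library offsets (60.4% of them lower against 87.3%), 240 at 200 reads or more, 1195 over all sites with 20 reads, and 129 to 522 leaving out 1 library. For the member sites the count of 1 became 0 (F test), 0 and 0 (limma), 3 (offsets, all in Lamc1), 2 (20 reads) and 0 to 1 leaving out 1 library. For genes the count of 43 became 0, 6, 5, 38 and 48 (200 reads) and 3 to 74; member genes stayed at 0 in every setting run. The mean difference over members, -0.47 points, was -0.21 at 200 reads, -0.28 with each gene counted once and -0.96 to -0.03 leaving out 1 library. Direction reversed in the sums of Adamtsl3 (0.3 with offsets, 0.9 without SNL 3, 0.2 without Sham 2; -1.2 to 0.9 leaving out 1 library), Col8a1 (-0.1 without Sham 1, up to 1.7 without Sham 2, -0.4 at 200 reads), Itga8 (-0.8 without SNL 1, -0.0 without SNL 3, -0.1 without Sham 2, up to 1.6 without SNL 2), Mmp16 (0.1 with offsets, 0.3 at 200 reads) and Itgb1bp1 (0.1 without SNL 3, -4.0 without Sham 1). The cause was not tested. Changes of 10 points at these depths, placed only at sites of intermediate methylation, were recovered in 30% of simulated cases, so smaller differences can be missed.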
